A study of Danio rerio with 2 samples.

Results

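Endothelial cells with high esm1, a gene for the secreted proteoglycan endocan, were taken from single-cell RNA sequencing of zebrafish tails and called esm1-high endothelial cells. The cells had at least 500 genes each, and less than 10% of their unique molecular identifiers (UMIs, each counting 1 captured RNA molecule) were mitochondrial. A cell was called endothelial with at least 10 UMIs per 10000 of cdh5, tie1, egfl7 and clec14a together and under 3 UMIs of the blood progenitor genes myb, runx1 and gata2b together. Of 2740 kept cells 1879 were endothelial, and 275 of these had at least 10 esm1 UMIs per 10000. They were compared with the other 1604 endothelial cells of the same libraries.

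All cells came from AB strain embryos of TgBAC(isl1:TagRFP);Tg(dab2:EGFP), collected at 48 hours post fertilisation. TagRFP is driven by the regulatory region of isl1, which encodes a transcription factor of the LIM homeodomain family. EGFP is driven by that of dab2, whose product takes part in clathrin-mediated uptake and marks veins and lymphatics, and both sort gates required EGFP. The TagRFP-positive, EGFP-positive gate gave the library labelled isl1-derived, and the TagRFP-negative, EGFP-positive gate gave the library labelled other. There was 1 library per gate, so nothing was tested and all intervals are 95% intervals for counting error only. Where a pair of values is given for a class of cells, the library labelled isl1-derived comes before the library labelled other.

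The RNA of the sort gene went against the labels. Within esm1-high cells TagRFP RNA stood at 4.88 CPM (UMIs of the gene per 1000000 UMIs of the class) in the library labelled isl1-derived and at 26.4 CPM in the library labelled other, from 10 and 6 UMIs. In the other endothelial cells it stood at 5.38 and 28.4 CPM. Endogenous isl1 had 0 UMIs in the 242 esm1-high cells of the library labelled isl1-derived and 1 UMI in the 33 of the library labelled other. The deposited file names also read opposite to the sample labels. Every difference between the libraries below carries this conflict, while the comparisons of esm1-high with other endothelial cells were made inside each library.

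When vessels sprout, a leading tip cell extends protrusions and moves, and stalk cells behind it form the tube. VEGF signalling raises the Notch ligand Dll4 in tip cells, and Notch activity in neighbours restrains their tip behaviour. Endothelial esm1, the peptide ligand gene apln and the chemokine receptor gene cxcr4a are widely used tip cell markers. In the zebrafish trunk and tail, intersegmental vessels sprout from the dorsal aorta between the somites, and the caudal vein plexus forms the venous side and a niche for blood stem cells.

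The library labelled isl1-derived held 2072 barcodes with 26865577 UMIs, and the library labelled other 730 barcodes with 5698957 UMIs, with 0 barcodes shared. Median depth per cell was close between classes, at 7799.5 and 6267 UMIs in esm1-high cells against 7669.5 and 6379.5 UMIs in other endothelial cells. The summed counts behind each level were 2050290 and 226859 UMIs in esm1-high cells against 8548721 and 3804460 UMIs in the others. Values for the library labelled other therefore rest on about 33 esm1-high cells and carry wide intervals.

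Esm1-high cells made up 18.5% of endothelial cells (242 of 1306, exact Clopper-Pearson interval 16.5% to 20.7%) in the library labelled isl1-derived. Their share in the library labelled other was 5.76% (33 of 573, 4.00% to 7.99%). Of the other endothelial cells 39.8% and 66.7% met the venous rule given below. The gates differ between the libraries, and their part in these shares cannot be told apart from other differences. Both gates required EGFP, and GFP RNA was lower in esm1-high than in other endothelial cells, as given below. These are therefore shares of the sorted cells and not of all tail endothelium. By the rule the members' esm1 ran between 10.03 and 140.0 per 10000 with a median of 28.6 in the library labelled isl1-derived, and between 10.1 and 75.1 with a median of 20.5 in the library labelled other. Just inside the threshold, 72 and 16 members lay below 20, and just outside it 51 and 18 other endothelial cells lay at or above 5, with highest values of 9.79 and 9.54. No gap separated the sides. Members with fewer than 3 esm1 UMIs numbered 3 and 0.

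**Figure D1:**
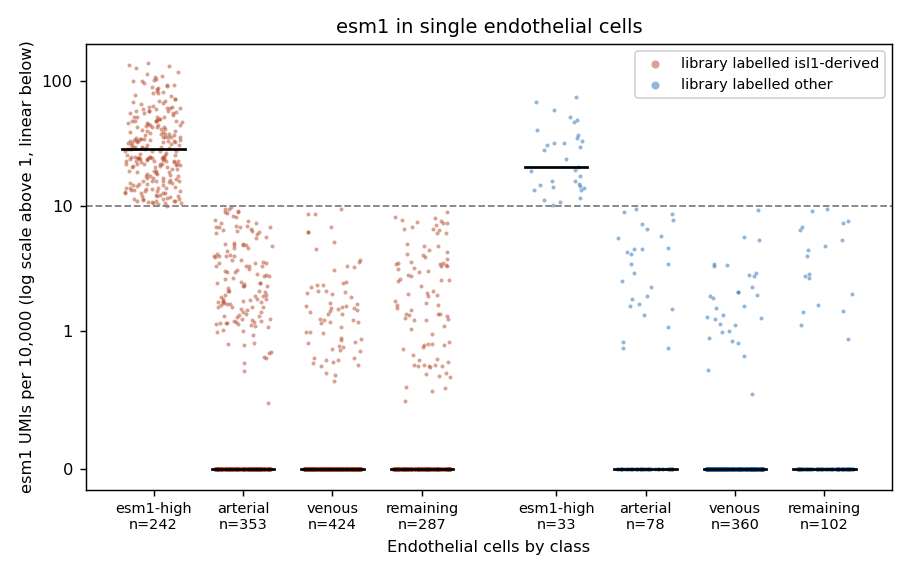
esm1 UMIs per 10,000 in each endothelial cell, by class and library, with the median of each class as a black bar and the threshold of 10 as a dashed line. Members span the range from the threshold to 140 and 75.1 in the libraries labelled isl1-derived and other, and the median of each other class lies at 0.

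Most other endothelial cells had no esm1 UMI at all, 765 of 1064 (71.9%) and 462 of 540 (85.6%). The share with an esm1 UMI, 28.1% and 14.4%, was near that of blood progenitor-type cells excluded by the rule, 25.3% and 11.3%, although those were deeper at medians of 25151 and 20641 UMIs. By level, esm1 stood at 89.0 and 54.9 CPM in other endothelial cells and at 19.3 and 5.76 CPM in those blood-type cells. Only 2 and 0 kept cells outside the endothelial set passed the esm1 threshold.

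Of the 4 other marker genes given for these cells, 3 were higher in both libraries. Apelin (apln), the peptide ligand of the Aplnr receptors, stood at 810 and 652 CPM in esm1-high cells, against 67.7 and 30.8 CPM in other endothelial cells. Within the library labelled isl1-derived its CPM ratio was 11.96 (10.9 to 13.2), and within the library labelled other 21.2 (16.5 to 27.3). The chemokine receptor gene cxcr4a stood at 456 and 436 CPM in esm1-high cells against 71.4 and 26.0 CPM, ratios of 6.38 and 16.8. The kinesin gene kif26aa stood at 106 and 128 CPM in esm1-high cells against 12.2 and 7.89 CPM, ratios of 8.70 and 16.2.

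The Notch target gene her15.1 did not follow in both. It stood at 253 CPM (518 UMIs) in esm1-high cells against 46.0 CPM in the library labelled isl1-derived, a ratio of 5.50. Those 518 UMIs lay in 58 of 242 esm1-high cells, and 3 cells held 22.6% of them. In the library labelled other her15.1 stood at 17.6 CPM (4 UMIs in 3 of 33 cells) in esm1-high cells against 13.9 CPM. The ratio there was 1.27 with an interval of 0.333 to 3.44. The near-identical copy her15.2 gave ratios of 6.76 and 1.497, and reads of the copies may be split between them. The position of the cells in intersegmental vessels was not measured, so it could not be checked. The marker genes were given for these cells with earlier results of these data known. Their levels therefore describe the cells and are no separate support for a name.

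A few cells carried much of these levels in the library labelled other. Its 3 leading esm1-high cells held 47.3% of the apln UMIs, 52.5% of the cxcr4a UMIs and 58.6% of the kif26aa UMIs. Without those 3 cells, a setting chosen after seeing the data, the ratios there were 12.3 for apln, 8.78 for cxcr4a and 7.45 for kif26aa, with 78, 47 and 12 UMIs left.

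The members differed among themselves in these markers. An apln UMI was present in 72.7% and 45.5% of esm1-high cells, against 12.7% and 7.41% of other endothelial cells. After thinning to 2000 UMIs per cell (5 and 0 members and 58 and 30 other endothelial cells were shallower and left out), those shares were 59.9% and 33.3% against 6.16% and 3.33%. For cxcr4a the shares at full depth were 58.7% and 45.5% in esm1-high cells against 17.2% and 6.85%, and for kif26aa 43.0% and 36.4% against 6.39% and 3.52%. Thinned cxcr4a shares were 39.2% and 33.3% against 8.05% and 2.75%, and thinned kif26aa shares 21.1% and 24.2% against 2.39% and 1.57%. At that depth 42 of 237 and 13 of 33 members had a UMI of none of apln, cxcr4a, her15.1 and kif26aa, 17.7% and 39.4%, against 82.5% and 92.2% of other endothelial cells. At least 3 of the 4 genes were seen together in 17 of 237 and 2 of 33 members and in 0 other endothelial cells of either library. For cells read at 2000 UMIs, and not for cells expressing the genes, a count of 0 allows a share of up to 0.298% of 1006 and 0.588% of 510. At full depth 3 of these genes were seen together in 64 and 6 members against 16 and 4 other endothelial cells, and all 4 in 19 and 0 members against 3 and 0.

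Across all genes the comparison with other endothelial cells covered 7385 genes with at least 50 UMIs in each library. At least 2-fold higher in both libraries were 137 genes (1.86%), and at least 2-fold lower were 444 genes (6.01%). The 1.5-fold bound used for gene lists below was passed by 352 genes upward (4.77%) and 773 downward (10.5%). The median log2 ratio over all these genes was 0.027 and 0.075. Since members were picked from the same cells by esm1, these are descriptions of size.

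Clone, mitochondrial, ribosomal protein and haemoglobin names were left out of the ranking of single genes. The 20 genes then leading upward included esm1, apln, cxcr4a and kif26aa. The others of the 20 are described here one by one, with no test of what they share. Of these, prdm1a, a zinc finger repressor gene, stood at 172 and 150 CPM in esm1-high cells against 28.8 and 23.7 CPM. The nuclear receptor gene nr5a2 stood at 416 and 370 CPM against 80.2 and 67.3 CPM, and the zinc finger gene zic2a at 218 and 110 CPM against 43.2 and 15.0 CPM. Their ratios lay between 5.05 and 7.36. The Wnt5 receptor gene ror1 had ratios of 4.19 and 3.89, the semaphorin receptor gene plxna3 4.28 and 7.60, and the beta-adrenergic receptor gene adrb3a 4.46 and 7.29.

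The water channel gene aqp1a.1 was among the most abundant RNAs of these cells, at 16599 and 15984 CPM in esm1-high cells against 4208 and 2770 CPM in other endothelial cells. The calcium-activated potassium channel gene kcnn4 had ratios of 5.35 and 4.24, the sodium pump regulator gene fxyd1 5.70 and 2.89, and slc35f1 of the solute carrier families 9.06 and 19.2. For fxyd1 the ratio in the library labelled other rested on 10 UMIs in esm1-high cells, with an interval of 1.32 to 5.71. A second kinesin gene, kif26ab, was more abundant than kif26aa at 576 and 560 CPM against 118 and 66.5 CPM. The other leading genes were fkbp1ab, dcbld1, c1qtnf5, pcolce2b and ttyh2l, with ratios between 3.92 and 9.17. Outside the naming rule and chosen after its value was seen, the unnamed gene CABZ01030107.1 stood at 1738 and 1080 CPM in esm1-high cells against 103 and 46.0 CPM, ratios of 16.9 and 23.5.

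Downward, the leading genes included several of scavenging and lymphatic endothelium. The scavenger receptor gene stab2 stood at 120 and 423 CPM in esm1-high cells against 1422 and 2774 CPM, ratios of 0.084 and 0.15. The mannose receptor gene mrc1a had ratios of 0.070 and 0.10, and the hyaluronan receptor gene lyve1b 0.056 and 0.15. Its paralogue lyve1a had 2 and 0 UMIs in esm1-high cells against 1305 and 269 UMIs. The chemokine gene cxcl12a, whose protein is the ligand of the Cxcr4 receptors, stood at 39.99 and 39.7 CPM against 513 and 375 CPM. The others were lsp1a, tfec, cldn11a, jag1b, myhz1.1, slc16a9a, mrc1b, slc7a7, ogna and susd1. For jag1b (2 UMIs) and slc16a9a (5 UMIs, all from 1 cell) the interval in the library labelled other reached above 1.

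**Figure D2:**
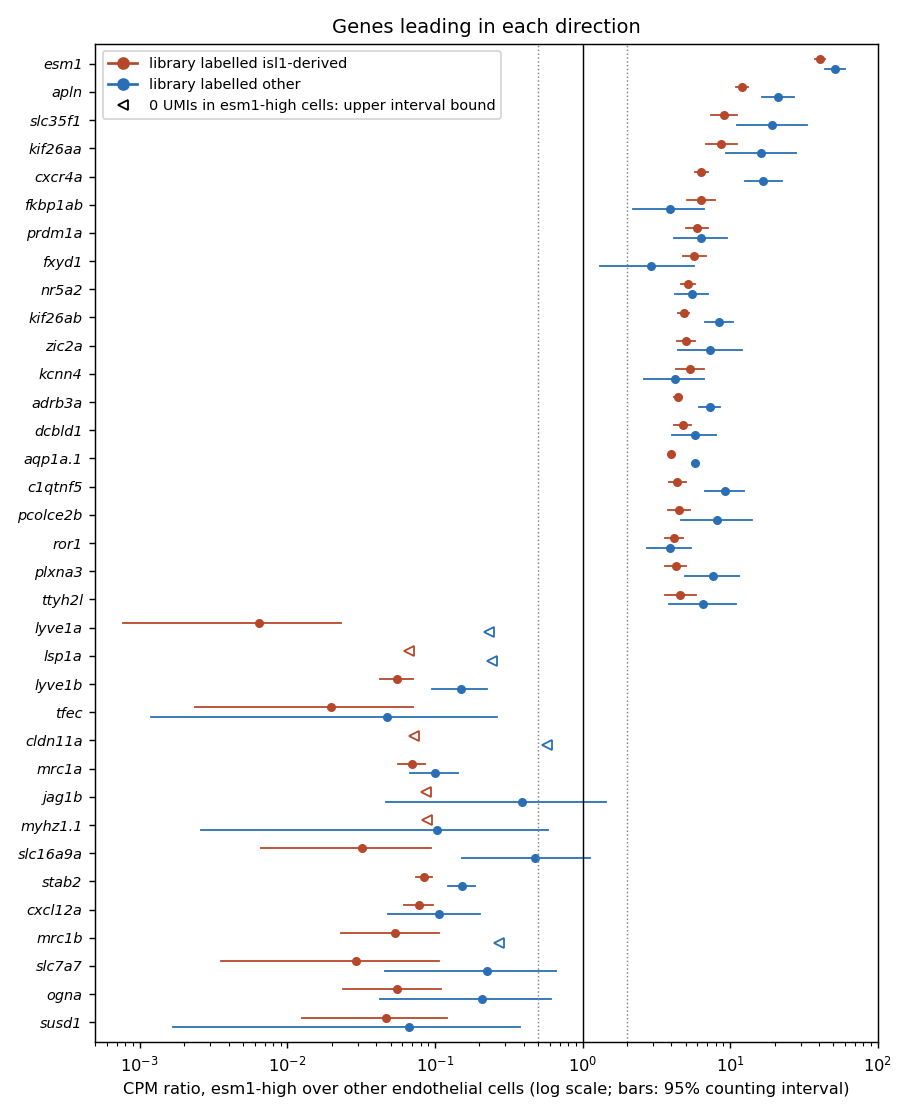
CPM ratio of esm1-high over other endothelial cells for the genes leading in each direction, by library, with 95% counting intervals; dotted lines mark 2-fold. Both blocks were drawn from genes at least 2-fold higher or lower in both libraries, so the side of the lines on which their points lie follows from that choice. The upper block includes esm1, the gene by which the cells were picked. Open triangles in the lower block mark genes with 0 UMIs in esm1-high cells at the upper bound of the interval.

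Of 17 measured sprouting and tip cell genes, 7 were at least 1.5-fold higher in both libraries and 2 lower, with median log2 ratios of 0.76 and 0.49. Higher were apln, cxcr4a, kif26aa, zic2a, the Notch ligand gene dll4, the VEGF co-receptor gene nrp1b and the adhesion gene mcamb. dll4 stood at 534 and 648 CPM in esm1-high cells against 155 and 112 CPM, ratios of 3.45 and 5.76. The netrin receptor gene unc5b was lower, with 4 and 0 UMIs in esm1-high cells against 207 and 140 UMIs. The list holds apln, cxcr4a and kif26aa, so its count is not separate from the marker genes. The angiopoietin gene angpt2a had too few UMIs to be measured in both libraries. In the library labelled isl1-derived it had 92 UMIs in 32 of 242 esm1-high cells against 4 UMIs in other endothelial cells, and in the library labelled other 1 UMI against 5.

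Receptors and ligands of the VEGF family differed in direction. Of 9 measured, the decoy receptor gene flt1 and nrp1b were at least 1.5-fold higher, and the lymphatic co-receptor genes nrp2a and nrp2b lower. flt1 stood at 852 and 511 CPM in esm1-high cells against 298 and 180 CPM. The main VEGF receptor gene of zebrafish endothelium, kdrl, had ratios of 1.69 and 1.40, and kdr 1.25 and 1.18. The VEGF-C receptor gene flt4 was level, at 384 and 476 CPM in esm1-high cells against 399 and 522 CPM.

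Apelin and angiopoietin-Tie genes gave 2 higher and 2 lower of 5 measured. The receptor gene aplnrb was higher with apln, at 197 and 190 CPM in esm1-high cells against 127 and 107 CPM. Its paralogue aplnra was lower, at 90.7 and 110 CPM against 353 and 545 CPM. The angiopoietin receptor gene tek stood at 32.2 and 61.7 CPM against 130 and 168 CPM, ratios of 0.25 and 0.37. In the chemokine list, cxcr4a and cxcr4b were higher and cxcl12a, cxcl12b and the scavenging receptor gene ackr3b lower, which covers all 5 measured. cxcr4b stood at 348 and 247 CPM in esm1-high cells against 87.7 and 19.7 CPM.

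Notch ligands and receptors gave 3 higher and 3 lower of 13 measured, with median log2 ratios of 0.25 and 0.12, or 0.14 and -0.10 under TMM scaling (which sets library sizes after trimming the most extreme genes). Higher were dll4, jag2b and notch1b, and lower were dld, jag1b and the Notch-modifying glycosyltransferase gene lfng. Of 9 measured Notch targets, her6, hey1 and nrarpb were higher and 0 lower. her6 stood at 1226 and 622 CPM in esm1-high cells against 525 and 412 CPM. The arterial target hey2 had ratios of 1.13 and 0.906, with intervals that included 1.

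Arterial genes as a list were higher, 7 of 12 measured against 1 lower, with median log2 ratios of 0.96 and 1.17. Besides dll4, flt1, hey1, notch1b and cxcr4a, these were the arterial ephrin gene efnb2a, at 223 and 141 CPM in esm1-high cells against 120 and 86.2 CPM, and the water channel gene aqp8a.1, at 10594 and 9014 CPM against 5210 and 2819 CPM. The gap junction gene gja5a had ratios of 0.816 and 1.24. Of 15 venous and plexus genes, 11 were lower and 2 higher, aplnrb and the fatty acid binding gene fabp11a, with median log2 ratios of -2.35 and -2.04. In the lymphatic list 5 of 7 measured genes were lower and 0 higher. Lysosomal and scavenging genes were lower as a block, 18 of 19 measured, and 5 of 6 genes of the blood stem cell niche were lower. The sort reporters followed the venous genes: dab2 stood at 211 and 652 CPM in esm1-high cells against 1612 and 2779 CPM, and GFP RNA at 316 and 599 CPM against 1595 and 2036 CPM.

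Among genes of matrix, junctions and movement most members stayed within 1.5-fold. Over all 7385 measured genes 4.77% were at least 1.5-fold higher and 10.5% at least 1.5-fold lower in both libraries. Of 14 basement membrane and matrix genes, the perlecan gene hspg2 (475 and 445 CPM in esm1-high cells against 144 and 123 CPM) and the laminin gene lamb1a were higher, and sparc and mmp2 lower. Of 12 junction genes, cldn5b was higher and its paralogue cldn5a lower, at 22.9 and 30.9 CPM against 114 and 57.0 CPM. Of 23 cytoskeleton and migration genes, 5 were higher (kif26aa, kif26ab, the actin-bundling gene fscn1a, vim and arhgef9b) and 0 lower, with median log2 ratios of 0.28 and 0.23, or 0.18 and 0.00905 under TMM scaling. Guidance genes gave 2 higher of 13, robo4 and efnb2a, and 3 lower, plxna2, robo1 and unc5b.

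Of 16 endothelial transcription factors ets1 was higher and foxc1a and hhex lower. In the BMP and TGF-beta response list 3 of 10 genes were lower, id2a, smad6a and the inhibitory gene smad7, and 0 higher. Flow response genes gave 1 lower of 7, tek, and glycolysis genes 2 lower of 14, pgk1 and eno3. These 2 counts were close to the share of all 7385 measured genes that were lower at that bound, 10.5%. Posterior Hox genes gave 5 higher of 18 and 0 lower, among them hoxa13a, at 28.3 and 52.9 CPM in esm1-high cells against 14.5 and 20.8 CPM. Genes of the immediate early and stress response were lower for 7 of 18 and higher for 0, with atf3 at ratios of 0.157 and 0.191 and median log2 ratios of -0.59 and -0.58. With the 2 members at 0 UMIs in the library labelled other set to their bound, the median there was -0.46.

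Cell cycle genes did not pass the 1.5-fold bound in both libraries. Of 14 genes of G1 and S phase and 11 of G2 and M phase, 0 were at least 1.5-fold away in either direction in both, nor were any of 6 cell cycle inhibitors. By library, the 11 G2 and M phase genes had ratios between 0.872 and 1.49 in the library labelled isl1-derived (median log2 ratio 0.27), and between 0 and 0.653 in the library labelled other. The median there was -1.36, or -1.03 with the 3 members at 0 UMIs set to their bound. The difference between the libraries was not tested. Cells with at least 3 UMIs over 6 mitotic genes were 25 of 242 (10.3%, 6.80% to 14.9%) and 1 of 33 (3.03%, 0.0767% to 15.8%) among esm1-high cells. Among other endothelial cells they were 89 of 1064 (8.36%) and 27 of 540 (5.00%), shares within those intervals. By the arterial and venous rules given below, they were 22 of 353 (6.23%) and 1 of 78 (1.28%) arterial-type cells. Among venous-type cells they were 15 of 424 (3.54%) and 14 of 360 (3.89%). In the library labelled isl1-derived both of these shares lay below the interval of esm1-high cells, and in the library labelled other both lay within it.

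**Figure D3:**
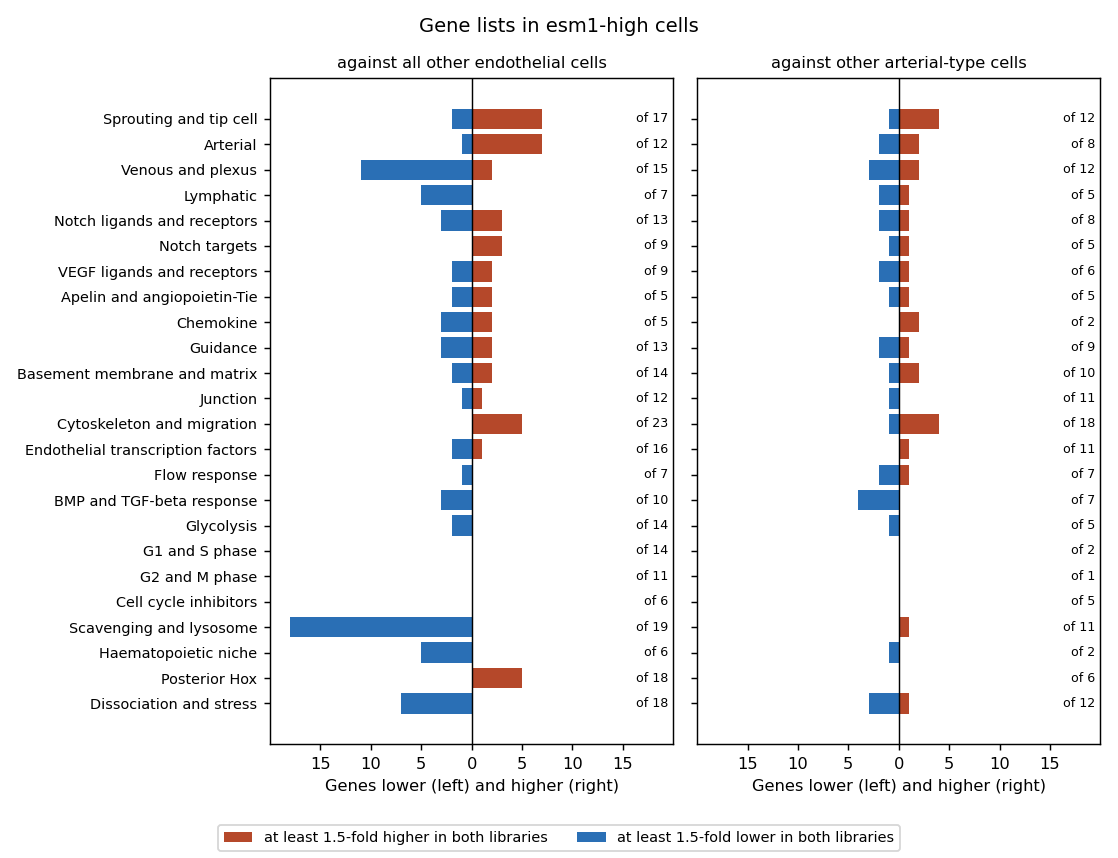
Number of measured genes in each list at least 1.5-fold higher (right, red) or lower (left, blue) in esm1-high cells in both libraries. The comparisons are with all other endothelial cells and with other arterial-type cells. Lists with at least 5 genes measured in the first comparison are shown, except the list of the marker genes, and the number measured stands at the right. The 2 genes that define arterial-type cells are left out of the second comparison. Scavenging and lysosome genes have 18 of 19 lower against all other cells and 0 of 11 lower against arterial-type cells.

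Because 76.0% and 72.7% of esm1-high cells met an arterial rule, against 33.2% and 14.4% of the other endothelial cells, they were also set against the 353 and 78 other endothelial cells that met it. This rule asks for at least 30 aqp8a.1 and under 10 stab2 UMIs per 10000, and the venous rule for at least 10 stab2 and under 30 aqp8a.1, so these 2 genes are not read here. Of 2294 genes measured, 33 were at least 2-fold higher in both libraries (1.44%) and 72 lower (3.14%), and at the 1.5-fold bound 122 were higher (5.32%) and 138 lower (6.02%). The higher lists of the 2 comparisons shared 23 genes, 16.8% of the 137 and 69.7% of the 33. Only 75 of the 137 had enough UMIs to be measured against arterial-type cells, so that the 23 were 30.7% of those that could be shared, and 69 of the 75 had ratios above 1 in both libraries. They share the esm1-high cells, so this overlap is no separate evidence.

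Against arterial-type cells apln and cxcr4a remained at least 2-fold higher in both libraries. apln stood at 108 and 69.9 CPM in arterial-type cells, ratios of 7.48 (6.62 to 8.49) and 9.34 (6.50 to 13.7). cxcr4a had ratios of 2.46 and 3.89, prdm1a 4.84 and 3.13, nr5a2 3.33 and 2.43, and kif26ab 2.83 and 3.14. kif26aa, with 38 UMIs over both classes in the library labelled other, was below the minimum, at ratios of 5.47 and 7.72, as was her15.1 at 2.08 and 0.872 (0.202 to 2.94). Some other leading genes were closer to arterial-type cells, with adrb3a at 1.75 and 1.39, kcnn4 at 3.67 and 1.37 (0.793 to 2.31), and aqp1a.1 at 1.83 and 1.87. dcbld1 (3.22 and 3.63) and ror1 (2.80 and 2.25) stayed at least 2-fold higher. Below the minimum, fkbp1ab had ratios of 6.48 and 3.32 and ttyh2l 4.70 and 8.79. Of 12 sprouting genes measured, apln, cxcr4a, dll4 and flt4 were at least 1.5-fold higher and nrp1a lower.

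Some genes within 1.5-fold of all other endothelial cells in both libraries stood higher than in arterial-type cells, and they are named after their values were seen. flt4 stood at 384 and 476 CPM in esm1-high cells, at 179 and 234 CPM in arterial-type cells and at 515 and 599 CPM in venous-type cells. The membrane-bound matrix protease gene mmp14b stood at 187 and 181 CPM in esm1-high cells against 67.0 and 79.1 CPM in arterial-type cells, near the 171 and 163 CPM of venous-type cells. tmem88b stood at 294 and 282 CPM against 101 and 101 CPM, and the semaphorin gene sema3fa at 93.2 and 150 CPM against 38.0 and 31.3 CPM. In venous-type cells tmem88b stood at 289 and 246 CPM, and sema3fa at 123 and 171 CPM, above its levels in esm1-high cells. The protocadherin gene pcdh17, with ratios of 2.48 and 2.80 over all other endothelial cells, stood at 436 and 436 CPM against 152 and 132 CPM in arterial-type cells and 126 and 119 CPM in venous-type cells.

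Other genes stood lower in esm1-high cells than in arterial-type cells, also named after their values were seen. The lymphangiogenic ligand gene vegfc stood at 60.5 and 137 CPM in esm1-high cells against 386 and 370 CPM in arterial-type cells, ratios of 0.157 and 0.370. cldn5a stood at 22.9 and 30.9 CPM against 207 and 178 CPM, tek at 32.2 and 61.7 CPM against 109 and 149 CPM, and gja5a at 35.1 and 30.9 CPM against 108 and 136 CPM. hey2 had ratios of 0.438 and 0.187, from 115 and 6 UMIs in esm1-high cells. The matrix genes col8a2 and sparc had ratios of 0.062 and 0.13, and 0.324 and 0.331. Leaving out aqp8a.1, 8 arterial genes were measured, of which dll4 and cxcr4a were higher and hey2 and gja5a lower, and the median log2 ratios of the list were 0.059 and -0.079.

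The BMP and TGF-beta response list gave 4 of 7 measured genes lower and 0 higher against arterial-type cells, with median log2 ratios of -0.83 and -1.18. The BMP target gene id1 stood at 837 and 604 CPM in esm1-high cells against 1853 and 1372 CPM in arterial-type cells. The receptor gene acvrl1 had ratios of 0.561 and 0.357, smad7 0.337 and 0.250, and id3 0.443 and 0.572. Of 18 cytoskeleton genes 4 were higher, marcksl1a, marcksl1b, fscn1a and kif26ab, and 1 lower, myl9a. Scavenging and lysosome genes, lower as a block above, gave 0 lower and 1 higher of the 11 measured besides stab2, and Posterior Hox genes 0 in either direction of 6.

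For the genes given next, directions were the same among the 184 and 24 esm1-high cells that met the arterial rule themselves. Their apln levels were 865 and 850 CPM against 108 and 69.9 CPM in other arterial-type cells. flt4 had ratios of 2.12 and 1.88 there, mmp14b 2.73 and 2.69, pcdh17 3.02 and 4.43, vegfc 0.178 and 0.470, cldn5a 0.131 and 0.217, tek 0.266 and 0.389, and id1 0.487 and 0.347. ror1 was lower in ratio in the library labelled other, at 1.53 with an interval of 0.871 to 2.61.

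**Figure D4:**
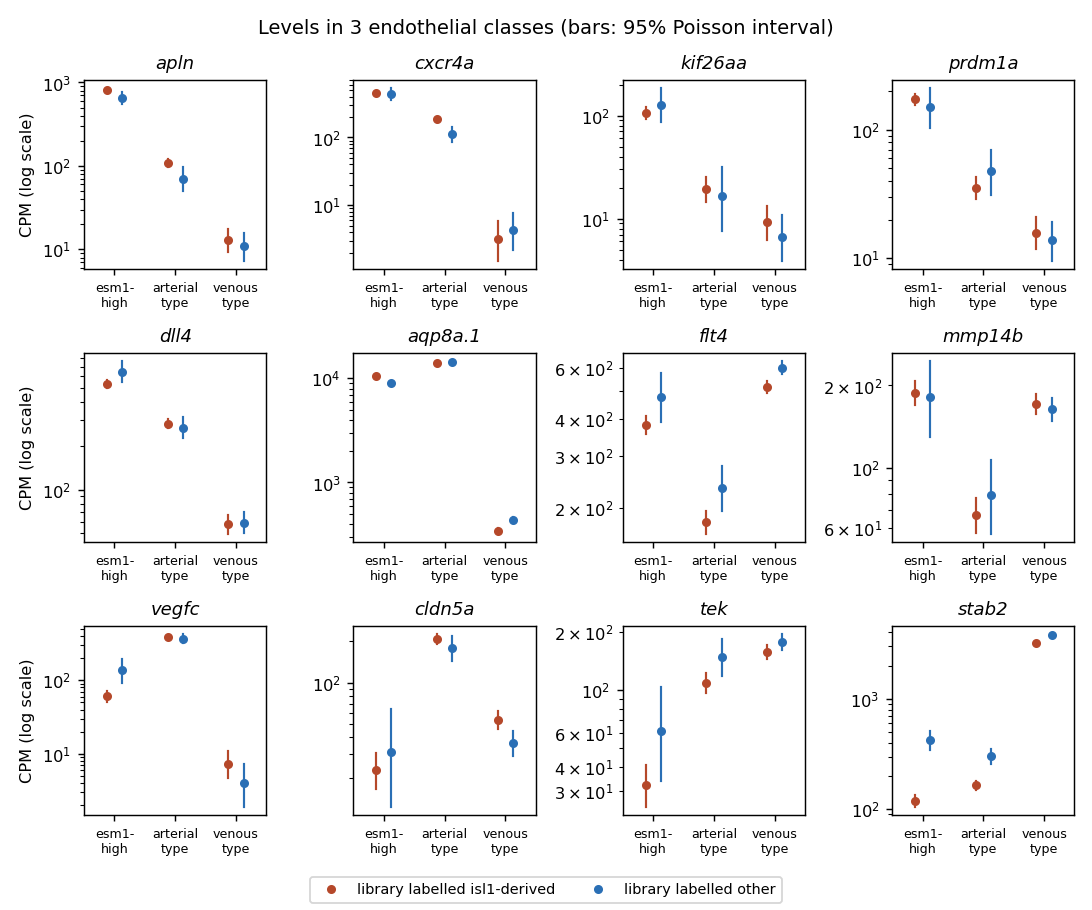
Level in CPM (log axis, scaled separately for each gene) of 12 genes in esm1-high, other arterial-type and other venous-type endothelial cells, by library, with 95% Poisson intervals. apln, cxcr4a, kif26aa, prdm1a and dll4 are highest in esm1-high cells, flt4 and mmp14b stand above arterial-type cells, and vegfc, cldn5a and tek stand below them; aqp8a.1 and stab2 define the arterial and venous types.

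Along esm1 the levels of several genes changed step by step, including below the threshold. In the library labelled isl1-derived apln stood at 26.4 CPM in endothelial cells without an esm1 UMI, at 124 CPM below 5 per 10000, at 296 CPM between 5 and 10, at 514 CPM between 10 and 20, at 721 CPM between 20 and 40 and at 1219 CPM above. The same steps in the library labelled other were 17.05, 67.3, 198, 208, 978 and 1288 CPM. Both series were higher at each step than at the one before, but in the library labelled other some steps lay within counting error. The 198 and 208 CPM there had intervals of 129 to 290 and 133 to 309 CPM. The 978 and 1288 CPM had intervals of 748 to 1256 and 989 to 1647 CPM. dab2 ran the other way, at 1868, 1186, 623, 433, 171 and 43.5 CPM in the library labelled isl1-derived. In the library labelled other it was 2987, 2043, 1028, 926, 353 and 388 CPM, where the highest steps hold 10 and 7 cells. From 10 per 10000 upward, kif26ab stood there at 727, 497 and 245 CPM and kif26aa at 95.2, 224 and 81.8 CPM. In the library labelled isl1-derived these steps were 500, 615 and 599 CPM for kif26ab and 68.6, 121 and 122 CPM for kif26aa. CABZ01030107.1 fell from 685 to 485 CPM across the threshold in the library labelled other, and rose from 556 to 782 CPM in the library labelled isl1-derived.

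**Figure D5:**
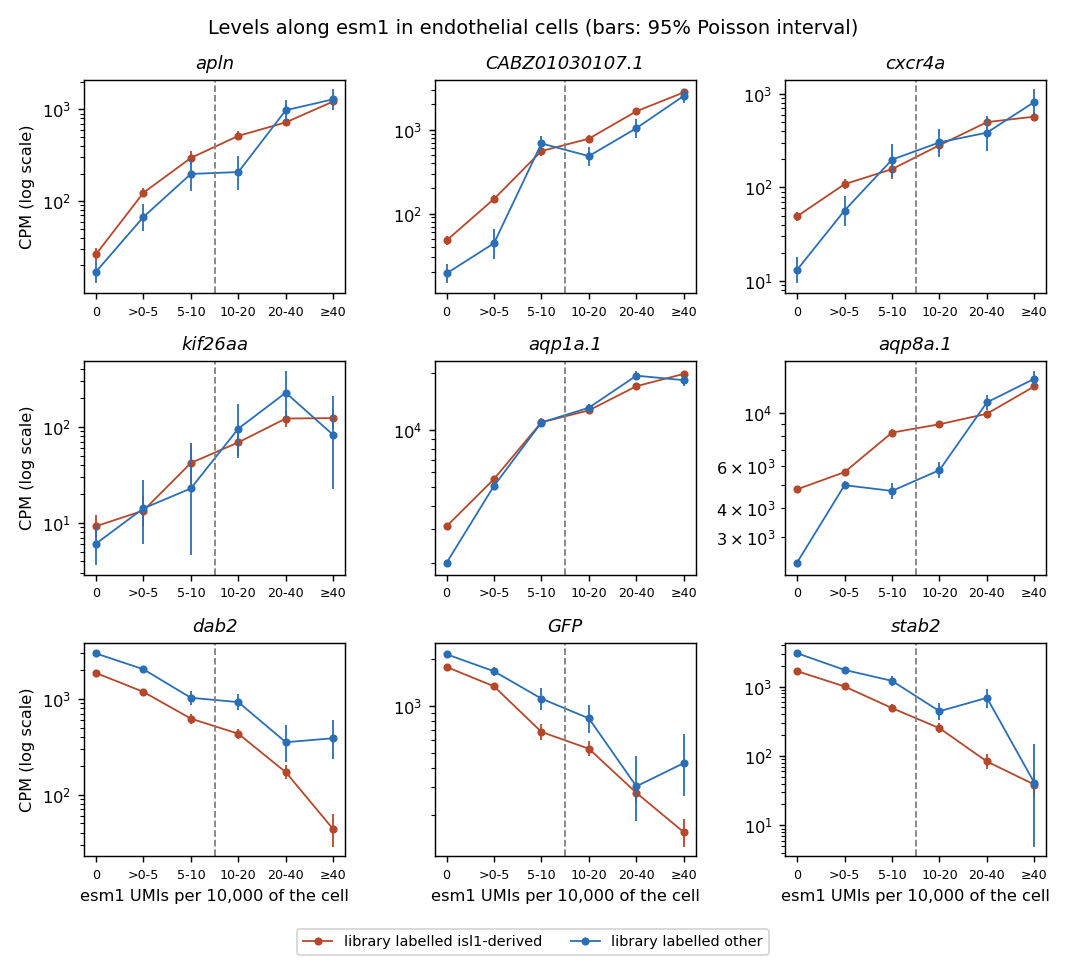
Level in CPM (log axis, scaled separately for each gene) of 9 genes in endothelial cells grouped by esm1 per 10,000 UMIs, by library, with 95% Poisson intervals and the threshold as a dashed line. apln and CABZ01030107.1 are lowest in cells without an esm1 UMI and highest at 40 or more, and dab2, GFP and stab2 are highest without esm1.

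Within the esm1-high cells, 242 and 33 cells that differ in depth, the rank correlation of a gene with esm1 was 0.49 and 0.64 for CABZ01030107.1. It was 0.32 and 0.47 for apln. It was -0.32 and -0.44 for dab2. For kif26aa it was 0.10 and 0.068, and the total UMI count itself gave -0.030 and -0.048. Rank correlations with depth were 0.24 and 0.27 for dab2 and -0.069 and -0.069 for apln. They were -0.055 and -0.078 for CABZ01030107.1 and -0.12 and -0.035 for kif26aa. These are descriptions of cells within a library. Relative to their mean in thinned counts, the arterial water channel gene aqp8a.1, icn, fabp11a and aqp1a.1 were among the genes with the largest variance among members in both libraries.

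The esm1-high cells of the 2 libraries were also set side by side, with the label conflict in mind. Of 5160 genes with at least 50 UMIs over the esm1-high cells of both libraries, 258 (5.00%) were higher by 2-fold or more in the library labelled isl1-derived, and 184 (3.57%) lower. Most UMIs behind the minimum come from that deeper library, so these counts are not balanced between the directions. her15.1 had 518 UMIs (253 CPM) in the library labelled isl1-derived, against 4 UMIs (17.6 CPM) in the library labelled other, a ratio of 14.3 (5.56 to 52.8), against 3.30 in other endothelial cells. Its UMIs lay in 58 of 242 and 3 of 33 esm1-high cells. The replication clamp gene pcna stood at 216 CPM (442 UMIs) and 30.9 CPM (7 UMIs). Summed over all 20 listed genes each, with no filter, G2 and M phase genes stood at 1793 CPM in esm1-high cells of the library labelled isl1-derived and 890.4 CPM in those of the library labelled other, a ratio of 2.01 (1.75 to 2.33), against 1.13 in other endothelial cells. G1 and S phase genes stood at 1006 and 370.3 CPM, a ratio of 2.72 (2.18 to 3.42), against 1.499. The sums in the library labelled other rest on 84 UMIs (G1 and S phase) and 202 UMIs (G2 and M phase) in 33 cells, 1 of them mitotic. The G2 and M phase list holds hmgb2a, with a mean of 2.28 and 1.52 UMIs per esm1-high cell thinned to 2000 UMIs. At that depth hmgb2a was seen in 60.8% and 48.5% of esm1-high cells. The summed G2 and M phase level is therefore not a level of mitotic cells alone.

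Several named genes were lower in the library labelled isl1-derived. stab2 stood at 120 CPM in esm1-high cells of the library labelled isl1-derived and 423 CPM in those of the library labelled other, where 3 cells held 66.7% of its 96 UMIs. dab2 stood at 211 and 652 CPM, the periostin gene postnb at 192 and 679 CPM, and icn at 1222 and 2764 CPM. The posterior Hox gene hoxc13b stood at 21.5 and 97.0 CPM. As ratios between the libraries these were 0.28 for stab2, 0.32 for dab2, 0.28 for postnb, 0.44 for icn and 0.22 for hoxc13b. In other endothelial cells stab2, dab2 and postnb were lower too, at ratios of 0.51, 0.58 and 0.61. There hoxc13b had 0.91 and icn 1.81.

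Markers of other cell types were mostly low or shared with other endothelial cells. Of 7 neural markers 5 and 6 had no UMI in esm1-high cells, and the 6 muscle markers summed to 8.78 and 17.6 CPM, with the defining myosin gene myhz1.1 at 0 and 4.41 CPM. Of 7 mural and fibroblast markers 3 and 4 had a UMI in esm1-high cells, with notch3 highest at 36.1 and 35.3 CPM. The 7 summed to 57.1 and 57.3 CPM, against 99.0 and 71.0 CPM in other endothelial cells. Among them pdgfrb, tagln and acta2 were at 0 in esm1-high cells of both libraries. In other endothelial cells acta2 was also at 0 in the library labelled isl1-derived, and tagln in the library labelled other. The 8 erythroid markers summed to 175 and 137 CPM in esm1-high cells against 108 and 37.3 CPM in other endothelial cells, with alas2 and slc4a1a at 0. Of these, hbbe2 alone was measured, at 83.9 and 110 CPM against 16.1 and 10.8 CPM, and without the 3 esm1-high cells richest in it in each library the ratios were 3.68 and 0.894. The part of blood RNA in that level was not tested. The neutrophil gene lyz stood at 67.8 and 0 CPM in esm1-high cells against 74.5 and 3.42 CPM, close within each library. Among the 8 myeloid markers srgn was highest, at 642 and 569 CPM in esm1-high cells against 489 and 506 CPM. The 6 epidermal markers summed to 2704.5 and 3240 CPM against 2959 and 2827 CPM, with krt8 alone at 2679 and 3213 CPM in esm1-high cells. The 10 blood progenitor markers summed to 1208 and 1089 CPM against 1436 and 1425 CPM, with cd63 highest. Scrublet called 10 of 2031 and 5 of 709 kept cells a doublet, and 0 of the 242 and 33 esm1-high cells. With so few calls over all kept cells, the 0 says little about the members.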

How the data were processed

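Tails of 48 hours post fertilisation embryos were dissociated, sorted and made into 10x Genomics 3' single-cell libraries, per the labels' protocols. The authors deposited raw UMI counts for each barcode and gene, made with Cell Ranger on build GRCz11 (version 5.0.0 per the submitters' processing notes, 5.0.1 per the file headers). No deposited barcode fell below 500 and 519 UMIs, and the filter removed 41 and 21 of them. Symbols shared by several features were summed. The 2 samples are 1 library in each of 2 groups. Strand handling and multimapping settings are not given in the sources used here.

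UMIs were summed per library and class (Python 3.11.15, numpy 2.4.6, scipy 1.17.1, pandas 2.3.3). CPM ratios have exact conditional binomial intervals, levels exact Poisson and shares exact Clopper-Pearson intervals, all at 95% and covering counting error only, since UMIs of 1 library share its preparation. Measured genes are those with 50 or more UMIs per library, summed over both classes. They were counted at 2-fold, or 1.5-fold within lists, in both libraries. For log2 ratios, 0.5 was added to both counts. A count of 0 was bounded with 3 counts.

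Genes named are the marker and rule genes, and list members with most UMIs or the largest ratio. Also named are the first 20 higher and 15 lower genes by the interval bound nearest 1 in the library labelled isl1-derived. Clone, mitochondrial, ribosomal protein and haemoglobin names were left out of those 20 and 15, and haemoglobin genes were read only as blood markers. Other named genes are marked where they appear. The members and lists were chosen with earlier results of these data known. Ratios and intervals were run on simulated Poisson sums. These leave out differences between cells, so they cannot show how the intervals hold where a few cells carry a gene. The alternatives were esm1 thresholds of 5 and 20, other cell filters, an endothelial threshold of 20, thinning to 2000 UMIs, Scrublet doublets left out (scanpy 1.11.5), equal weight per cell, TMM scaling (edgeR 4.0.16 in R 4.3.3), minimums of 20 and 150 UMIs, mitotic cells left out and arterial-type cells as comparison. Each library alone, the 3 leading cells of a gene left out, and lists without aqp8a.1 and stab2 against arterial-type cells, were added after seeing the data. No sequences or coordinates are shown, as the tables at hand are of another build.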

Additional observations from a re-analysis of the deposited data

Results flagged for a closer look

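For 5 of 280 named or listed genes the ratio of esm1-high over other endothelial cells lay above 1 in 1 library and below 1 in the other, with both counting intervals clear of 1. The difference between the libraries was not tested, as there is 1 library of each kind. The ligand gene vegfc had ratios of 0.411 (124 UMIs in esm1-high cells) in the library labelled isl1-derived and 2.05 (31 UMIs) in the library labelled other. The co-receptor gene nrp1a had 0.817 in the library labelled isl1-derived and 1.44 in the library labelled other. Against arterial-type cells both genes were lower in both libraries. The mitotic gene ube2c had 1.27 in the library labelled isl1-derived and 0.394 in the library labelled other, the second from 5 UMIs. The glycolytic gene gapdhs had 1.06 and 0.656 in these libraries, and the keratin gene krt8 had 0.914 and 1.15. Under TMM scaling the ratios of gapdhs were 0.989 and 0.565 and those of krt8 0.850 and 0.987, so that each gene lay below 1 in both libraries.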

How the results depend on the processing

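TMM scaling shifted log2 ratios by -0.11 in the library labelled isl1-derived and -0.22 in the library labelled other. Against the main counts of 137 genes higher and 444 lower, thinned cells gave 57 and 241 (of 3187 measured), a minimum of 150 UMIs gave 68 and 265, arterial-type cells as comparison gave 33 and 72, and each library alone gave 193 to 457 and 622 to 1068; the higher values are those without the library labelled isl1-derived. In all, 22 values of these counts stayed within 1.5 times, among them the 193 and 622 of the library labelled isl1-derived alone. The share of esm1-high cells in the library labelled isl1-derived was 22.4% at an esm1 threshold of 5, 13.0% at 20 and 20.8% at an endothelial threshold of 20, and in the library labelled other 8.90% at 5 and 2.97% at 20. List medians (log2) against arterial-type cells were -0.23 and -0.12 for arterial genes, -0.097 for posterior Hox genes and -0.13 for scavenging genes in the library labelled isl1-derived, and 0.33 for scavenging and 0.16 for venous genes in the library labelled other. These include aqp8a.1 and stab2, which define arterial-type cells. Leaving both out, added after seeing the data, gave 0.059 and -0.079 for arterial, -0.13 and 0.23 for scavenging and -0.24 and 0.099 for venous genes. In the library labelled other the medians were 1.86 (arterial) and -2.55 (scavenging) in thinned cells, 0.79 (Notch targets) at an esm1 threshold of 5, 0.77 (Notch targets) with equal weight per cell, -2.76 (venous) at a threshold of 20 and 0.00905 (cytoskeleton) under TMM, which gave 0.26 for posterior Hox genes in the library labelled isl1-derived. The other 247 list values stayed inside the interval of the main value. Where that interval included 0 the sign could change. Notch ligands and receptors in the library labelled other had 0.12, and -0.10 under TMM.

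Against arterial-type cells the ratio in the library labelled other was above 1 for lyve1b (1.72), mrc1a (1.02), ogna (1.199), slc16a9a (5.99, and 1.42 in thinned cells), slc7a7 (7.19), stab2 (1.39) and tfec (1.199). The rule for arterial-type cells sets the value of stab2, and the intervals of the others included 1, with 1 to 5 esm1-high UMIs for ogna, slc16a9a, slc7a7 and tfec. In the library labelled isl1-derived slc7a7 (2.72, 0.142 to 161) and mrc1b (2.72, 0.729 to 12.4) also stood above 1 against arterial-type cells, from 2 and 8 esm1-high UMIs. In that comparison lyve1a, cldn11a and mrc1b had 0 UMIs in both classes of 1 library, so they have no ratio there and were not counted. Of the other gene ratios counted, 413 stayed inside the interval of the main value and 80 moved out of it, with direction kept except for her15.1. In the library labelled other her15.1 had a ratio of 1.27 in the main setting. It had 0.872 there against arterial-type cells and 0 without its 3 leading cells. The cause of these moves was not tested. Values of the library labelled other rest on 33 cells. No paired analysis was possible because each group holds 1 library and no test was run.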
